A study of Homo sapiens with 4 samples.

Results

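The genes described here are 10 interferon-induced antiviral effectors, MX1, MX2, IFI44, IFI44L, IFI6, IFI27, ISG20, RSAD2, CMPK2 and XAF1, out of 20323 genes measured in NK-92 cells. They were chosen by name among effectors that had shown strong falls after ADAR1 knockdown in these same libraries. Their differences between the groups are therefore given as descriptions, with no test, and the rule set no numeric limit. All 10 were found in the deposited table, and all 10 passed the filter on low counts that left 11810 genes.

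NK-92 is a human natural killer (NK) cell line that grows in medium with recombinant IL-2. Both groups were spun with lentivirus in the presence of polybrene, and the virus carried a pLKO.1 hairpin. NK scramble cells received a scrambled hairpin (shscramble) and NK shADAR1 cells a hairpin against ADAR, the gene of the double-stranded RNA editing enzyme ADAR1, with 2 libraries of oligo(dT)-selected RNA per group. The labels number the knockdown libraries shADAR1-1 and shADAR1-2, which the study also uses as names of its hairpins, so the labels alone do not say whether 1 hairpin or 2 were used. The series text calls the libraries of a group independent biological replicates, and the study names shADAR1-2 as the knockdown that was sequenced. They were therefore taken as replicates of 1 group. Every value comes from a single cell line.

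The libraries held 37881704 to 39960491 estimated counts. CPM below means counts scaled to a common depth after TMM normalization. ADAR itself measured 655 and 682 CPM in the 2 control libraries, against 575 and 482 CPM in knockdown replicates 1 and 2. The log2 fold change of ADAR was -0.34 with a standard error of 0.20, so that 86.0% and 72.1% of the NK scramble mean remained in the knockdown libraries, and it did not pass the edgeR quasi-likelihood test (unadjusted p = 0.127, adjusted p = 1.00). All 14 NK markers examined were at 1 FPKM or more in every library, and their summed level was 4180 to 4680 FPKM in NK scramble and 4450 to 4780 FPKM in NK shADAR1. The T cell genes CD3D, CD3G, CD4, CD8A, CD8B and CD5, the B cell genes MS4A1, CD79B and CD22, and the monocyte genes CD14, LYZ, CSF1R, FCN1, S100A8 and VCAN were under 1 FPKM in every library. Markers above that level in every library numbered 3 of 9 for T cells, 1 of 6 for B cells and 2 of 8 for monocytes. The summed levels of NK scramble and NK shADAR1 were 445 to 551 and 522 to 611 FPKM for T cells, 3.03 to 4.07 and 3.08 to 7.81 FPKM for B cells, and 3.69 to 4.15 and 4.51 to 5.26 FPKM for monocytes. The part of these levels in the results was not tested.

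Type I interferons bind the receptor IFNAR1 and IFNAR2, whose kinases JAK1 and TYK2 phosphorylate STAT proteins. With IRF9 these form the complex ISGF3, which enters the nucleus and binds the interferon-stimulated response element (ISRE) in promoters of interferon-stimulated genes. The encoded effectors act at different steps of a virus life cycle, from entry and uncoating to RNA synthesis and release. Many of them are also expressed at a lower level without infection.

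To show what the promoters of these genes share apart from their values, the RefSeq promoter table (build GRCh38.p14, 250 bases before to 50 bases after each transcript start) was searched on both strands. It matched 9 of the 10 genes by symbol, with 17 windows in all. MX2 was not matched. The ISRE was searched as a pair of GAAA repeats with any 2 bases between them. It was present in windows of 7 of the 9 genes and in 10 of the 17 windows, against 4.38% of all 27305 genes and 3.57% of all 35116 windows in the table. A form with 1 base between the repeats, GAAANGAAA with N for any base, was added after the letters of these windows had been seen. It was present in 5 of the 9 genes and in 3.87% of all genes. A GAAANGAAA match may overlap an ISRE match, as it does in IFI44 and in the window at the first MX1 start.

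The ISRE matches are given with 7 bases on either side. They read 5′ to 3′ on the strand of the gene, and capitals mark the motif, which appears as TTTC repeats where the match is on the other strand. Positions count from the transcript start. For IFI27 they count from the upstream of its 2 starts. The same IFI27 sites lie at -187 and -174 from the other start and count in both windows.
IFI44L, chr1:78620277-78620300, plus strand, ISRE at -164: tagtgagGAAAAAGAAAgttagtg
IFI44L, chr1:78620368-78620391, plus strand, ISRE at -73: tagtgagGAAAAAGAAAgttagtg
IFI44, chr1:78649764-78649787, plus strand, ISRE at -18 and at -60 from its 2 starts: cactgagTTTCAGTTTCctttctc
IFI6, chr1:27672332-27672355, minus strand, ISRE at -156: gagagggGAAAATGAAActctgca
IFI6, chr1:27672291-27672314, minus strand, ISRE at -115: gagagggGAAAATGAAActgcaga
IFI6, chr1:27672269-27672292, minus strand, ISRE at -93: gagtgcaGAAATAGAAActccgac
IFI27, chr14:94110621-94110644, plus strand, ISRE at -108: tctgcagTTTCGGTTTCctggaaa
IFI27, chr14:94110634-94110657, plus strand, ISRE at -95: tttcctgGAAAATGAAAcctatct
ISG20, chr15:88638940-88638963, plus strand, ISRE at -69: caaactaGAAACTGAAAcagggtc
MX1, chr21:41420562-41420585, plus strand, ISRE at 11 of its start 1: cagaaatGAAACCGAAActgaatt
MX1, chr21:41431847-41431870, plus strand, ISRE at -196 of its start 3: cactctgTTTCTCTTTCcgtgaat
RSAD2, chr2:6877625-6877648, plus strand, ISRE at -145 of its downstream start: tttcaacTTTCAGTTTCacatgtg

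IFI44L held the same 24 letters at both of its sites, and 2 of the 3 IFI6 sites shared the letters from the flank through the motif. The start of RSAD2 that lies next to CMPK2 had no ISRE match but 4 matches to GAAANGAAA, of which 2 also fall in a window of CMPK2, read from the other strand. CMPK2 and XAF1 held that form and no ISRE match. The GAAANGAAA sites of RSAD2, CMPK2 and XAF1 follow, and the 2 sites that RSAD2 and CMPK2 share name both genes.
RSAD2, chr2:6865726-6865748, plus strand, at -152: cgcctcgGAAACGAAAcctggcg
RSAD2, chr2:6865760-6865782, plus strand, at -118: ccggcggGAAACGAAAcccggag
RSAD2 and CMPK2, chr2:6865794-6865816, plus strand, at -84 for RSAD2: ccagcggGAAACGAAAgcgaagc
RSAD2 and CMPK2, chr2:6865818-6865840, plus strand, at -60 for RSAD2: ttgcgggGAAACGAAAgccggag
XAF1, chr17:6756034-6756056, plus strand, at -5: cctgcaaGAAACGAAActcaacc

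The gamma-activated sequence (GAS), a STAT-binding element searched as TTCNNNGAA, matched in 2 of the 9 genes, MX1 and IFI27, and in 9.38% of all genes, and it overlapped an ISRE match in both. A match is a run of letters and does not show that a factor was bound in these cells.

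**Figure D1:**
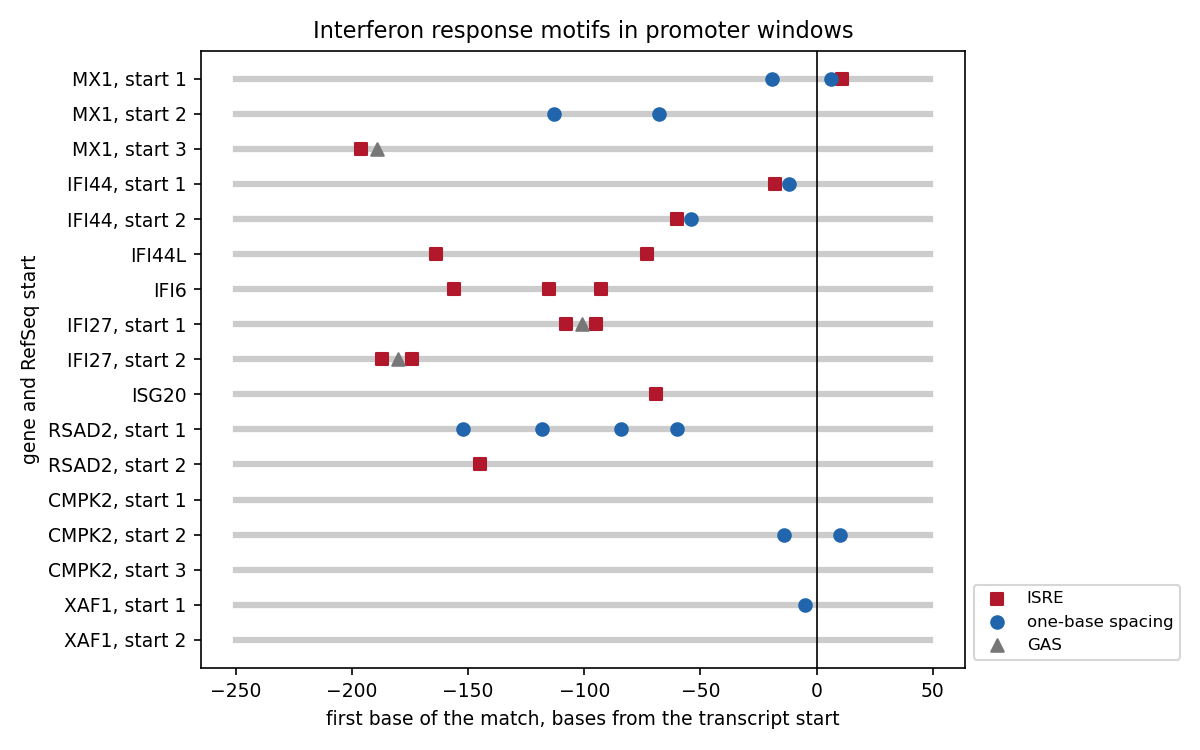
Positions of motif matches in the 17 RefSeq promoter windows of 9 genes. The horizontal axis is the first base of a match in bases from the transcript start, each grey line is a window from 250 bases before to 50 bases after a start, red squares are ISRE matches, blue circles matches with a single-base spacing and grey triangles GAS matches. All ISRE matches but the one after the first MX1 start lie upstream, and 10 of the 17 windows hold at least 1.

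MX1 and MX2 encode dynamin-like GTPases that block viral nucleocapsids, MX1 mainly those of influenza and related viruses and MX2 those of lentiviruses and herpesviruses. They lie 10913 bases apart on chromosome 21 (GRCh38, GENCODE annotation), MX2 at 41361943 to 41409390 and MX1 at 41420304 to 41459214, both on the plus strand. MX1 was at 565 and 519 CPM in the libraries of NK scramble, and at 293 and 60.8 CPM in replicates 1 and 2 of NK shADAR1. MX2 was at 2.70 and 3.05 CPM in the control libraries and at 1.37 and 0.0536 CPM in the knockdown libraries, where the last value stands for 2 counts. Both genes were lower in each knockdown library than in each control library, and both were far lower in NK shADAR1 replicate 2 than in replicate 1.

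The log2 fold change of MX1 was -1.62 with a standard error of 0.53, a 3.06-fold lower level. For MX2 it was -2.0 with a standard error of 0.85. Relative to the NK scramble mean, 54.1% of MX1 and 47.7% of MX2 was left in NK shADAR1 replicate 1. In replicate 2 the values were 11.2% for MX1 and 1.86% for MX2, and the exact 95% interval of the latter, which covers counting error only, ran from 0.224% to 6.80%. RNA of many cells was pooled in each library, so fewer cells expressing a gene and less RNA per cell cannot be told apart here or in any result below. MX1 shares 236 exon bases with an antisense gene on the opposite strand that was not in the deposited table, and whether strand was used in counting is not given in the sources used here.

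**Figure D2:**
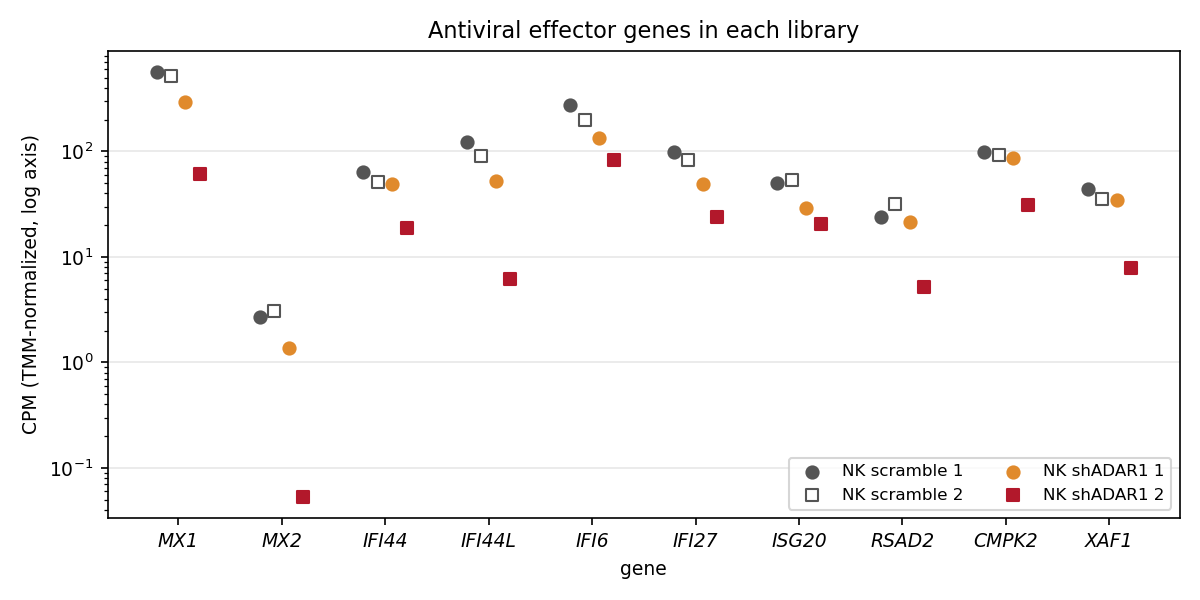
Level of each antiviral effector gene in each library. The vertical axis is CPM after TMM scaling on a log axis, grey symbols are the NK scramble libraries, the orange circle NK shADAR1 replicate 1 and the red square NK shADAR1 replicate 2. In every gene the red square is the lowest value, as in MX1 at 60.8 CPM against 519 to 565 CPM in the controls.

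IFI44 and IFI44L encode related cytoplasmic proteins that restrain viral replication, and IFI44L has also been described as a feedback regulator of interferon responses. They lie side by side on the plus strand of chromosome 1, IFI44L at 78619922 to 78646145 and IFI44 at 78649796 to 78664078, with 3650 bases between them. IFI44L was at 124 and 90.2 CPM in NK scramble and at 52.5 and 6.13 CPM in NK shADAR1. IFI44 was at 63.1 and 51.2 CPM in NK scramble and at 48.7 and 18.8 CPM in NK shADAR1. The neighbours thus differed in NK shADAR1 replicate 1, where IFI44L stood at 49.1% of the control mean and IFI44 at 85.2%, close to the lower control library. In replicate 2 they stood at 5.73% and 32.9%. The log2 fold change was -1.87 with a standard error of 0.68 for IFI44L and -0.76 with a standard error of 0.36 for IFI44.

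IFI6 and IFI27 belong to a family of small hydrophobic proteins of the endoplasmic reticulum and mitochondria. IFI6, on the minus strand of chromosome 1 at 27666061 to 27672218, protects the endoplasmic reticulum from the membrane invaginations that flaviviruses make. IFI27, on the plus strand of chromosome 14 at 94104836 to 94116698, is widely used as a blood marker of interferon exposure. IFI6 was at 275 and 198 CPM in NK scramble and at 134 and 82.0 CPM in NK shADAR1. IFI27 was at 97.8 and 83.1 CPM in NK scramble and at 49.3 and 23.9 CPM in NK shADAR1. Both were lower in each knockdown library than in either control, and the knockdown libraries lay closer to each other than they did for the MX genes. The log2 fold change was -1.13 for IFI6 (standard error 0.27) and -1.31 for IFI27 (standard error 0.31).

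ISG20 encodes a 3′ to 5′ exonuclease that degrades single-stranded RNA. It lies on the plus strand of chromosome 15 at 88636153 to 88656483. Its level was 49.7 and 53.2 CPM in the controls against 29.3 and 20.6 CPM in the knockdown, which left 56.9% and 40.1% of the control mean. ISG20 had the smallest gap between the knockdown replicates of the 10 genes, a 1.42-fold difference, and its log2 fold change was -1.04 with a standard error of 0.22.

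RSAD2 encodes viperin, a radical SAM enzyme that converts CTP to ddhCTP, a chain terminator of viral RNA polymerases. CMPK2, its neighbour, encodes a mitochondrial nucleoside monophosphate kinase of pyrimidines. On chromosome 2 RSAD2 runs on the plus strand from 6865806 to 6898239 and CMPK2 on the minus strand from 6840570 to 6866635, so that the genes overlap by 830 bases at their starts and share 14 exon bases. RSAD2 was at 23.8 and 31.7 CPM in NK scramble and at 21.2 and 5.19 CPM in NK shADAR1. CMPK2 was at 99.1 and 92.4 CPM in NK scramble and at 85.6 and 31.3 CPM in NK shADAR1. In both genes NK shADAR1 replicate 1 lay just below the lower control library and replicate 2 well below it. The share left was 76.4% and 18.7% for RSAD2 and 89.4% and 32.7% for CMPK2, with log2 fold changes of -1.07 (standard error 0.48) and -0.71 (standard error 0.37).

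XAF1 encodes XIAP-associated factor 1, which antagonises the inhibitor of apoptosis XIAP. It lies on the plus strand of chromosome 17 at 6755447 to 6775647, where it shares 2535 exon bases with the gene PRAL on the opposite strand. XAF1 was at 44.2 and 35.2 CPM in NK scramble and at 34.9 and 7.77 CPM in NK shADAR1. Replicate 1 was thus almost at the lower control library, and the log2 fold change of -0.90 (standard error 0.50) came mostly from replicate 2, at 19.6% of the control mean. XIAP itself, at 28.2 and 43.1 CPM in the controls against 29.8 and 31.2 CPM in the knockdown, did not pass the edgeR test (log2 fold change -0.22, unadjusted p = 0.364, adjusted p = 1.00).

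In all 10 genes both knockdown libraries were below both control libraries, as was the case for 12.6% of all tested genes, a count that the choice of these genes fixes. Their median log2 fold change was -1.10, beside 0.00 over all 11810 genes. Taken by library, the median log2 ratio to the control mean was -0.81 in NK shADAR1 replicate 1 and -2.09 in replicate 2. With only NK shADAR1 replicate 2 kept in that group, the median log2 fold change of the 10 genes was -2.14, and with only replicate 1 kept it was -0.82.

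The genes differed in the level left in NK shADAR1 replicate 1. The grouping that follows was made after these values were seen and rests on that single library, so it is a description only. In MX1, MX2, IFI44L, IFI6, IFI27 and ISG20 that library held 47.7% to 56.9% of the control mean. In IFI44, RSAD2, CMPK2 and XAF1 it held 76.4% to 89.4%. In replicate 2 all 10 genes were between 1.86% and 40.1%, and 5 of them (MX1, MX2, IFI44L, RSAD2 and XAF1) were below 25% of the control mean. With 0.5 CPM added to each level, 5 of the 10 genes and 14 of all tested genes (0.119%) were below 25% in replicate 2. Counted in the same way in replicate 1, 0 of the 10 genes and 7 of all tested genes (0.0593%) were below it. The 10 genes were chosen for falls that include these values, so nothing is read from these counts.

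**Figure D3:**
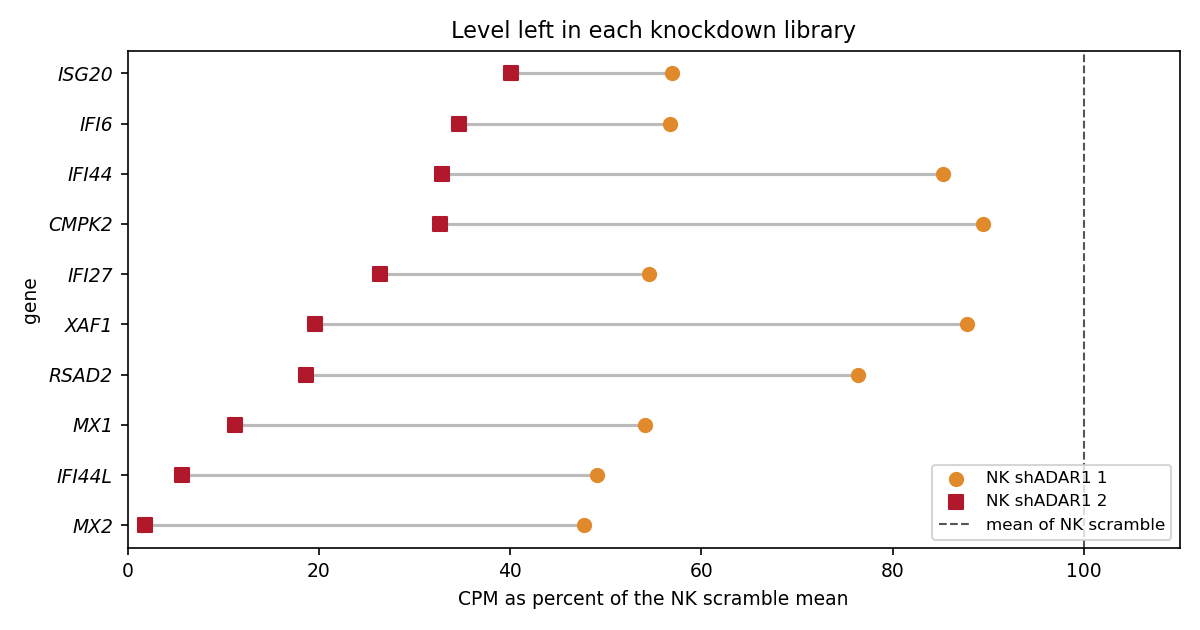
Level left in each knockdown library. The horizontal axis is CPM as a percent of the NK scramble mean (dashed line at 100), with an orange circle for NK shADAR1 replicate 1, a red square for replicate 2 and genes ordered by replicate 2. Replicate 1 ranges from 47.7% to 89.4% and replicate 2 from 1.86% to 40.1%, and the gap in percentage points is widest in XAF1 and narrowest in ISG20, while by fold it is widest in MX2.

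The difference between the knockdown libraries was compared with the same difference between the control libraries. The level in NK shADAR1 replicate 1 exceeded that in replicate 2 by 1.42-fold in ISG20, 1.64-fold in IFI6 and 2.06-fold in IFI27. It was 4.08-fold higher in RSAD2, 4.49-fold in XAF1, 4.82-fold in MX1 and 8.57-fold in IFI44L. On the log2 scale with 0.5 CPM added, the ratio of replicate 2 to replicate 1 in NK shADAR1 had a median of -1.60 over the 10 genes and was below 0 in all 10. In NK scramble the same ratio had a median of -0.18 and ran from -0.47 to 0.41. Over all tested genes the median was -0.01 in NK shADAR1 and 0.00 in NK scramble, and the lowest 1% of genes started at -1.19 and -0.97. Of the 10 genes, 7 were below that limit in NK shADAR1 and 0 in NK scramble. The falls for which the genes were chosen include the low values of NK shADAR1 replicate 2, so nothing is read from this count.

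ADAR was also lower in NK shADAR1 replicate 2 than in replicate 1, as given above, at 482 against 575 CPM. With 1 value per library the relation between the level of ADAR and that of the effectors was not tested.

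**Figure D4:**
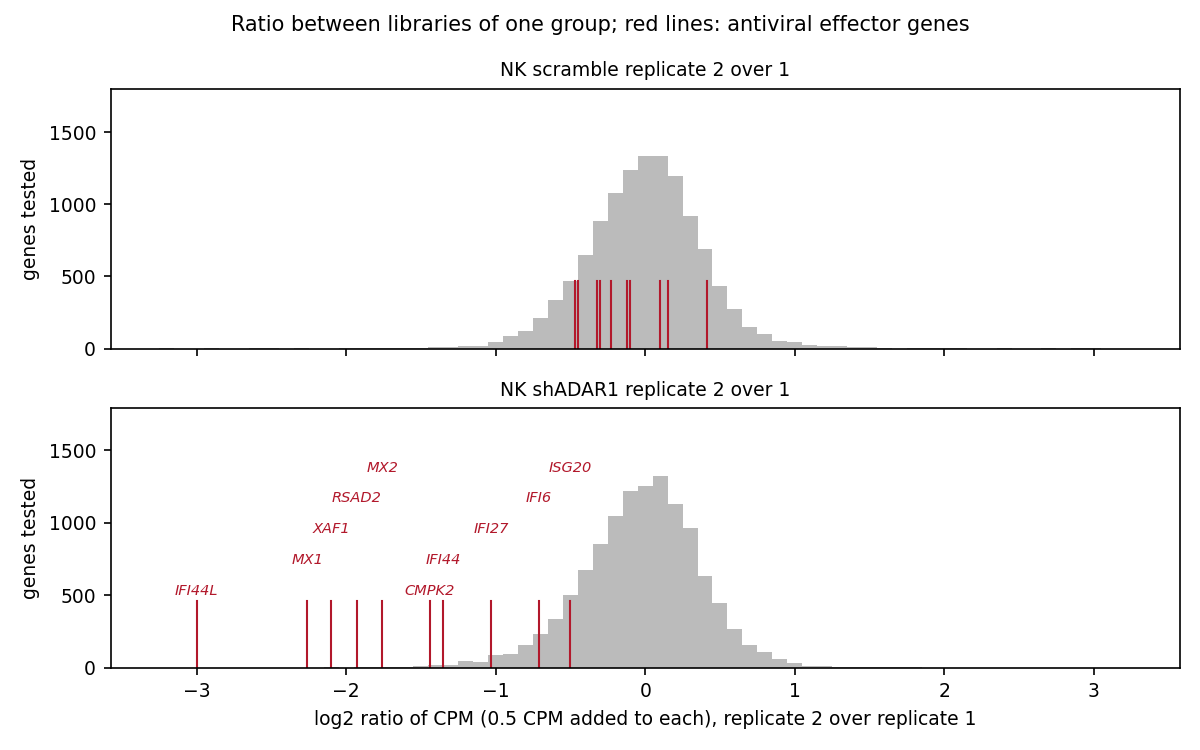
Ratio between the libraries of each group over 11810 tested genes (grey bars) and in the 10 antiviral effector genes (red lines). The horizontal axis is the log2 ratio of replicate 2 to replicate 1 with 0.5 CPM added, values beyond the axis are drawn in the outermost bar, and the vertical axis counts genes. The 10 genes lie between -0.47 and 0.41 in NK scramble and between -3.00 and -0.50 in NK shADAR1.

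Levels between genes were compared per transcript length, by FPKM. In NK scramble cells IFI6 was highest at 290 ± 72.3 FPKM (mean ± SD, n = 2), followed by MX1 at 195 ± 15.9 FPKM and IFI27 at 164 ± 10.8 FPKM. ISG20 was at 49.5 ± 0.0891, IFI44 at 38.4 ± 3.50, IFI44L at 37.0 ± 6.25 and CMPK2 at 31.2 ± 2.08 FPKM. The lowest were XAF1 at 13.9 ± 2.77, RSAD2 at 7.81 ± 1.39 and MX2 at 1.18 ± 0.433 FPKM. The libraries of IFI44 and IFI44L overlapped, as did those of IFI44L and CMPK2, and all other neighbours in this order lay apart. IFI6, MX1 and IFI27 exceeded 97.6% or more of all 20323 genes in the control cells, while MX2 exceeded 52.2%. In NK shADAR1 cells the means were 134 ± 52.0 FPKM for IFI6, 67.9 ± 36 FPKM for IFI27 and 65.1 ± 62.3 FPKM for MX1.

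The FPKM and count values of a gene imply the length that was used, which should be alike in all libraries. For MX1, IFI6, RSAD2 and CMPK2 the longest implied length was at most 1.01 times the shortest. For MX2 it was 1840 bases in NK scramble replicate 1 and 3444 and 3410 bases in the libraries that followed, and in NK shADAR1 replicate 2 there were too few counts. The fold difference of MX2 was thus 5.44 by FPKM and 4.0 by counts. For XAF1 the implied length was 2773 to 2914 bases in all libraries but NK shADAR1 replicate 2, where it was 2364 bases. The longest was 1.19 times the shortest for ISG20 and IFI44L, 1.12 times for IFI44 and 1.10 times for IFI27. For ISG20 the implied length was 888 bases in NK shADAR1 replicate 1 and 1014 to 1059 bases elsewhere. Which transcripts lay behind these lengths was not analysed here.

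To place the 10 genes in their pathway, genes from ligand to target were examined from lists written with earlier results of these data known. In this contrast 0 of 11810 genes passed an adjusted p of 0.05 with a 1.5-fold change by edgeR (0.0%), and 0 of 15605 genes by DESeq2. An unadjusted p under 0.05 was found for 289 genes by DESeq2 and for 293 by edgeR. The counts that follow therefore combine an unadjusted p below 0.05 and a 1.5-fold difference, which 213 genes met (1.8%), 64 as lower (0.542%) and 149 as higher (1.26%). All adjusted p-values of edgeR were 1.00.

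Among 13 interferon genes only IFNB1 and IFNG passed the filter on low counts. IFNB1, the gene of interferon beta, had 3 and 18 counts in NK scramble and 10 and 0 counts in NK shADAR1, so that a difference was not detectable at this depth. IFNG, the gene of interferon gamma, a cytokine that NK cells secrete, was at 32.3 and 60.0 CPM in NK scramble and at 19.7 and 22.5 CPM in NK shADAR1. It is named after its values were seen, and its log2 fold change of -1.13 had an unadjusted p of 0.00236 and an adjusted p of 1.00 by edgeR. Unlike the 10 effectors, IFNG was not lower in NK shADAR1 replicate 2 than in replicate 1.

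Of 28 interferon signaling genes 24 were tested, with 15 log2 fold changes below and 9 above 0 and a median of -0.05. At the unadjusted threshold 2 of the 24 were lower and 1 higher, among them USP18 as lower and PTPN6 as higher. Over all tested genes the shares were 0.542% lower and 1.26% higher. The median log2 ratio of the 24 genes to the control mean was -0.07 in NK shADAR1 replicate 1 and -0.08 in replicate 2. The receptor chains showed little difference, with IFNAR1 at 43.3 and 48.3 CPM in the controls against 40.8 and 43.7 CPM in the knockdown, and IFNAR2 at 79.0 and 88.0 against 75.9 and 105 CPM. The kinases JAK1 and TYK2 had log2 fold changes of 0.07 (standard error 0.20) and 0.01 (standard error 0.23).

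Of the genes of ISGF3, IRF9 was at 47.6 and 41.7 CPM in NK scramble and at 38.1 and 13.3 CPM in NK shADAR1, and its log2 fold change of -0.80 (standard error 0.38) did not pass (unadjusted p = 0.0629, edgeR). STAT2 overlapped between the groups, at 36.7 and 55.8 against 42.7 and 38.5 CPM, with a log2 fold change of -0.19 (standard error 0.23, unadjusted p = 0.437, edgeR). In IRF9, NK shADAR1 replicate 2 was the lowest of the 4 libraries, at 29.8% of the control mean.

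USP18, an ISG15 protease that also binds IFNAR2 and damps signaling, was at 37.5 and 39.3 CPM in NK scramble and at 21.6 and 15.5 CPM in NK shADAR1. Its log2 fold change was -1.05 (standard error 0.22, unadjusted p = 0.000838, adjusted p = 1.00, edgeR). PTPN6, a phosphatase that dampens JAK-STAT signaling, was at 16.2 and 26.2 CPM in NK scramble and at 31.3 and 35.5 CPM in NK shADAR1 (log2 fold change 0.66, standard error 0.25, unadjusted p = 0.0260, adjusted p = 1.00, edgeR). IRF7, the factor that amplifies interferon gene transcription, had groups that overlapped, with 75.9 and 38.4 CPM in the controls against 39.2 and 5.94 CPM in the knockdown. It is named after its values were seen, and NK shADAR1 replicate 2 held 10.4% of the control mean.

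**Figure D5:**
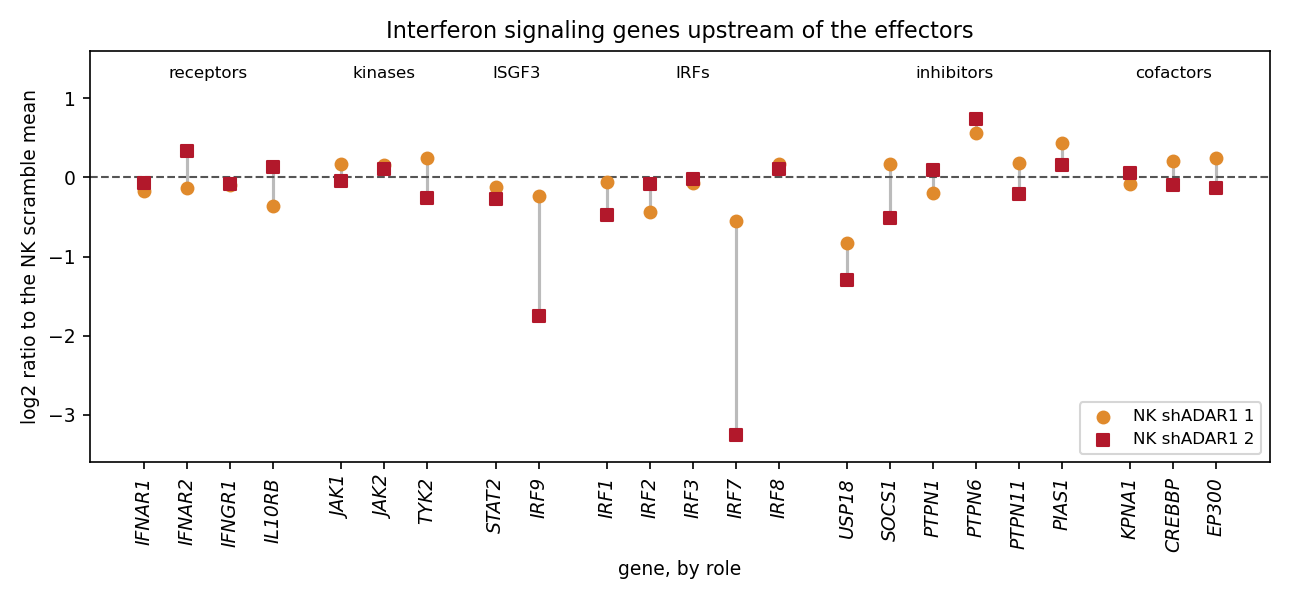
Interferon signaling genes by role. The vertical axis is the log2 ratio of each knockdown library to the NK scramble mean, with an orange circle for NK shADAR1 replicate 1 and a red square for replicate 2, and the dashed line marks no difference. Receptors, kinases and cofactors lie near 0 in both libraries, while IRF9, IRF7 and USP18 lie lower in replicate 2.

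A list of 71 other antiviral effectors, which shares genes such as STAT2, IRF7, IRF9 and USP18 with the signaling list, had 69 tested genes. Of these, 60 had a log2 fold change below 0 and 9 above, with a median of -0.34. At the unadjusted threshold 12 were lower and 0 higher, beside 0.542% and 1.26% of all tested genes. In 30, or 43.5%, both knockdown libraries were below both controls, beside 12.6% of all tested genes. The number past the threshold changed when either knockdown library was left out, and so did the number over all genes. Such counts are not compared, since the remaining library of a group is then assumed to vary like the other group. The median log2 ratio to the control mean was -0.16 in NK shADAR1 replicate 1 and -0.45 in replicate 2. In 57 of 69 genes the level was lower in replicate 2 than in replicate 1, beside 5972 of all 11810 tested genes.

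The largest falls past that threshold were in IFIT1, OAS1, HELZ2, EPSTI1 and OAS2. IFIT1, which binds viral RNA lacking cap methylation, was at 30.4 and 31.9 CPM in NK scramble and at 18.5 and 6.91 CPM in NK shADAR1 (log2 fold change -1.29, standard error 0.37, unadjusted p = 0.00541, edgeR). OAS1, a synthase of the second messenger that activates RNase L, was at 85.6 and 91.4 against 53.5 and 19.9 CPM (log2 fold change -1.27, standard error 0.37, unadjusted p = 0.00597, edgeR). Its relative OAS2 was at 370 and 382 against 228 and 124 CPM. HELZ2, a helicase and nuclear receptor coactivator, was at 178 and 122 against 102 and 33.5 CPM, and EPSTI1 at 27.2 and 28.5 against 17.8 and 7.28 CPM.

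Values of the most similar families were as follows. For the OAS family with RNase L the median was -0.89 on the log2 scale for 5 genes, and 2 were lower at the unadjusted threshold. That median is the value of OAS3, which had 12 and 9 counts in the controls and 11 and 0 in the knockdown, with a standard error of 1.05. The IFIT and IFITM families had a median of -0.49 over 7 tested genes with 1 lower, and the cytosolic RNA sensors and helicases a median of -0.47 over 6 tested genes with 0 past the threshold. By library, the median log2 ratio to the control mean was 0.03 in NK shADAR1 replicate 1 and -0.80 in replicate 2 for the OAS family. It was -0.12 and -1.21 for the IFIT and IFITM families and -0.15 and -0.74 for the sensors. All of these medians were thus lower in replicate 2. The value of 0.03 is again that of OAS3, with 0.5 CPM added. OAS1 and OAS2 held 60.5% and 60.7% of the control mean in replicate 1, and 22.5% and 32.9% in replicate 2. Of 7 tested IFIT and IFITM genes, 6 were lower in replicate 2 than in replicate 1. The exception was IFITM2, at 72.1% in replicate 1 and 86.4% in replicate 2. The difference between these families and the 10 genes was not tested, since the latter were chosen for their falls.

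Relatives by sequence or substrate were listed as a contrast, as genes outside the textbook interferon targets. Whether each of them responds to interferon was not tested. Of 20 tested relatives, 12 had a log2 fold change below 0 and 8 above, with a median of -0.05. At the unadjusted threshold 0 passed, beside 1.8% of all tested genes, so that with this few genes nothing is read from the count. In 4 relatives (20.0%) both knockdown libraries were below both controls, and in 3 both were above. Over all tested genes these shares were 12.6% and 13.3%. The dynamins DNM2, which acts in endocytosis, and DNM1L, which acts in mitochondrial fission, had log2 fold changes of -0.09 (standard error 0.20) and 0.32 (standard error 0.21), beside -1.62 and -2.0 for MX1 and MX2. IFI27L1 and IFI27L2, the paralogs of IFI27, were at 0.30 (standard error 0.30) and 0.04 (standard error 0.31), and both overlapped between the groups. The nuclease relatives ISG20L2 and AEN were at -0.28 (standard error 0.20) and -0.44 (standard error 0.20). RSAD1 was at -0.05 and CMPK1, the cytosolic kinase of CMP and UMP, at -0.06, with standard errors of 0.20 and 0.19. TRAFD1, a zinc finger relative of XAF1, was at -0.27 (standard error 0.21).

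The genes outside the list whose profile over the 4 libraries was most like the mean profile of the 10 effectors were IFIT1, OAS1, HELZ2, EPSTI1 and IFIT3, among 10411 genes that averaged 50 counts or more. Likeness was the root mean square difference of centred log2 CPM, which was 0.17, 0.18, 0.20, 0.25 and 0.29 for these genes. The 10 genes themselves lay at 0.20 for XAF1, 0.22 for RSAD2, 0.28 for MX1 and 0.29 for IFI27, and up to 0.97 for MX2. All 5 similar genes were on the list of other antiviral effectors. The profile they were matched to is that of genes chosen for their falls in these libraries, so the match is a description only. IFIT3 was at 47.4 and 45.6 CPM in NK scramble and at 42.7 and 13.0 CPM in NK shADAR1, with a log2 fold change of -0.74 (standard error 0.41, unadjusted p = 0.105, edgeR).

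The ISRE letters were also counted among tested genes other than the 10. Of 417 such genes with an ISRE match in a promoter window, 8 were lower at the unadjusted threshold (1.92%) and 4 higher, and the median log2 fold change was -0.02. Of 9109 genes without a match, 31 were lower (0.34%) and 109 higher, and the median was 0.00. The 39 genes with 2 or more matches had a median of -0.25, with 2 lower. These shares are descriptions and were not tested against each other.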

How the data were processed

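Poly(A)-selected RNA of NK-92 cells was sequenced in 4 libraries, 2 of NK scramble and 2 of NK shADAR1. For each gene the authors deposited an estimated count, often fractional and without depth scaling, and an FPKM value, scaled for transcript length and mapped fragments. The submitters' processing notes name fastp 0.18.0. The aligner, counter, genome build and use of strand are not given in the sources used here. Of 20323 Ensembl identifiers, 20301 matched a symbol.

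Estimated counts were rounded and analysed in R 4.3.3 with edgeR 4.0.16. The function filterByExpr with a minimum count of 10 kept 11810 genes, TMM gave the scaling factors, and the quasi-likelihood test was run without covariates, with Benjamini-Hochberg adjustment over all genes kept. DESeq2 1.42.0, RLE and upper quartile scaling, other filters, a replicate block, FPKM ratios and leaving out each library were the alternatives. Ratios between single libraries used CPM, with 0.5 CPM added where a log2 ratio between replicates or to the control mean over many genes is given. Standard errors are the log2 fold change divided by the square root of the F statistic. Nothing says that same-numbered libraries were handled together, and with 2 libraries per group the smallest two-sided p of an exact permutation test is 0.333, and that test was not applied. P-values measure only the spread between these libraries. At 37881704 to 39960491 counts per library, counting error is small for all but low genes such as MX2.

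The members and the gene lists were chosen with earlier results of these data known. Named were the 10 members, ADAR, up to 5 falls and 5 rises past the unadjusted threshold and the 1.5-fold change in the effector and signaling lists, STAT2, IRF9, 10 relatives, and the 5 genes closest in profile. Any other gene is marked where it appears, and some genes under this rule are not reported here. Positions are from GENCODE release 29 (GRCh38) and motif sites from the RefSeq promoter table (GRCh38.p14), and the scripts were tested on simulated data with Python 3.11.15 and R.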

Additional observations from a re-analysis of the deposited data

How the results depend on the processing

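The median log2 fold change of the 10 effectors was -1.10, stayed below 0 under every alternative run, and was -1.07 and -0.87 by FPKM with 0.1 and 1 added. It ranged from -2.14 (without NK shADAR1 replicate 1) to -0.82 (without NK shADAR1 replicate 2) when single libraries were left out. Of 120 values of single effectors under the alternatives, 0 changed sign and 9 moved by more than the spread between replicates, all of them without NK shADAR1 replicate 1. That spread includes the gap between the knockdown libraries, so large changes without NK shADAR1 replicate 2 did not count as moves. Without that library XAF1 went from -0.90 to -0.19 and CMPK2 from -0.71 to -0.16. IFI44 went from -0.76 to -0.23 and RSAD2 from -1.07 to -0.39. The number of all genes called was 0 by edgeR, DESeq2, the other scalings and the other filters, 213 at the unadjusted p, and 1 to 47 when single libraries were left out, where the remaining library of a group is assumed to vary like the other group. The other antiviral effectors past the unadjusted threshold numbered 12, or 19 with no filter beyond 1 count and 8 to 31 with single libraries left out. The interferon signaling genes numbered 3, or 5 with no filter beyond 1 count, and the relatives 0 in both. With single libraries left out the numbers in these lists changed, as did the number over all genes, so they are not compared. With the replicate number as a block, 13 genes were called in all, and the median of the 10 effectors was -1.29. The unadjusted threshold was then passed by 20 of the other antiviral effectors and 5 of the signaling genes, beside 306 of all tested genes. Deviations from the group means correlated at r = 0.308 between same-numbered libraries. With 2 libraries per group this value is the same for both pairs by construction. With only 2 pairs the numbers were not taken as a pairing. The causes of these changes were not tested. What limits the values is the spread between 2 libraries per group, and for MX2 in NK shADAR1 replicate 2 the count of 2.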
